A study of Canis lupus familiaris with 12 samples.

Results

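Secreted and membrane proteins enter the cell's export route through the endoplasmic reticulum, and 10 genes of that entry and folding machinery were followed here in a dog melanoma cell line exposed to 3 nonsteroidal anti-inflammatory drugs. The genes were named by symbol: SRP54, SRP68 and SRP72 of the signal recognition particle, SEC61B of the translocon, SSR1 of the translocon-associated protein complex, SPCS2 and SEC11A of the signal peptidase, DDOST of the oligosaccharyltransferase, and the chaperones CANX and HSP90B1. Every probe that the array design ties to a dog RefSeq transcript of one of them was taken. The members were chosen by name and function with earlier fold changes from the processed scanner signal of these arrays known, and the rule itself holds no cutoff on a measured value. All 10 were found, on 15 of the array's 43603 distinct probes. By the same route 832 genes of the array have a name, of which 614 had a probe that could be tested. Counts over the set therefore describe these genes and are no evidence that the set stands apart.

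The cells were Mi/CMM1, a line from an oral melanoma of a dog, maintained in serum-containing medium. Untreated cells, with no vehicle named, were compared with cells given piroxicam, carprofen or robenacoxib, with 3 one-colour arrays in each of 4 groups. Each drug was used at its IC50, given as 116 µM piroxicam, 779 µM carprofen and 156 µM robenacoxib for 6 h in the design text, and with the values of piroxicam and carprofen exchanged and a time of 24 h in the treatment protocol. Doses therefore differ between drugs in either version, and comparisons between drugs compare these exposures. The replicates are described as biological, with nothing further on separate cultures, so p-values measure the spread between these samples. All groups are 1 cell line in culture, and so 1 tumour.

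A ribosome that begins a secreted or membrane protein is bound by the signal recognition particle and brought to the endoplasmic reticulum membrane, where the Sec61 channel takes the growing chain across. Signal peptidase then removes the leading peptide, and oligosaccharyltransferase adds sugar chains to the passing protein. Calnexin, a lectin that holds newly glycosylated proteins, and HSP90B1 (also called GRP94), a chaperone of the HSP90 family, help the chain fold. Several of these genes are known targets of the unfolded protein response, which cells switch on when folding in this compartment fails.

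Levels below are log2 signals after subtraction of the 75th percentile over all probes of the array, so a change is a change relative to that percentile and not per cell. A gene is said to have risen or fallen where limma's adjusted p over all 31996 tested probes was below 0.05. All 15 probes of the 10 genes were well above background on 12 of 12 arrays, so no gene was lost to the filter on dim probes, and no spot was saturated. A gene with several probes was read on its brightest one. There were 3 slides: the controls and carprofen 1 shared slide 1, piroxicam 1 and 2 shared slide 2 with carprofen 2 and 3, and piroxicam 3 shared slide 3 with all robenacoxib arrays. A second fit, called the blocked fit below, took slide as a block. Piroxicam and robenacoxib were thus never on a slide with a control. In the blocked fit carprofen meets the controls only on slide 1. Its change against control in that fit is therefore carprofen 1 against the 3 controls. Carprofen against piroxicam is likewise the slide 2 difference, and robenacoxib against piroxicam the slide 3 difference. Piroxicam and robenacoxib reach the controls only through these steps. On the first principal component control 3 was the lowest array (-32.3, next to carprofen 3 at -24.2) and piroxicam 3 the highest (56.5, next to piroxicam 1 at 27.4). Of the melanocyte markers named on the array, MITF was well above background on 12 of 12 arrays, TYR on 0 of 12, and the 3 KIT probes on 0, 0 and 4 of 12.

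Changes were small throughout, between 1.15-fold lower and 1.08-fold higher than in the controls over the 10 genes and 3 drugs. With carprofen 6 genes fell and 0 rose: SEC11A, SPCS2, HSP90B1, SRP72, SSR1 and DDOST. With piroxicam SRP72 and SEC11A fell and 0 rose, and with robenacoxib SEC61B rose and SEC11A fell. SEC11A, a catalytic subunit of signal peptidase, was the gene that fell with each of the drugs. When arrays were scaled on spiked-in transcripts instead, every fall turned into a rise or into no call, with 5, 10 and 10 of the 10 genes higher than control for piroxicam, carprofen and robenacoxib and 0 lower. In the blocked fit 0, 1 and 0 genes were called, where 5.09%, 16.4% and 1.41% of all probes were called in either direction. In drug order the SEs were then 0.04 to 0.10, 0.03 to 0.08 and 0.05 to 0.12, against 0.02 to 0.05 without the block. A call lost in that fit therefore need not mean a smaller change. Without control 3 and piroxicam 3 SRP72 was called lower with piroxicam (-0.18), SRP72, SPCS2, SEC11A, DDOST and HSP90B1 were called lower with carprofen (-0.15, -0.14, -0.20, -0.11 and -0.14), and none of the 10 was called with robenacoxib. SPCS2 for carprofen against piroxicam (-0.19) and SEC61B for robenacoxib against carprofen (0.14) were then the calls between drugs.

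Among all probes, 16.1% were called lower and 11.9% higher with piroxicam, beside 2 and 0 of the 10 genes. With carprofen 19.5% of all probes were called lower and 13.3% higher, beside 6 and 0 genes. The shares with robenacoxib were 12.6% lower and 9.57% higher, beside 1 gene each way. For piroxicam, carprofen and robenacoxib the median change of the 10 genes was -0.06, -0.12 and -0.02, where the median over all probes was -0.02, -0.02 and -0.03. At limma's unadjusted p below 0.05, 1 gene was higher and 4 lower with piroxicam, beside 16.9% and 23.1% of all probes. Carprofen had 0 and 6, beside 17.4% and 25.2%, and robenacoxib 1 and 1, beside 14.3% and 20.5%. In the blocked fit the unadjusted counts were 0 and 0 with piroxicam (all probes 9.91% and 12.3%), 0 and 4 with carprofen (12.9% and 19.5%) and 0 and 0 with robenacoxib (8.45% and 7.62%). In that fit the median change of the 10 genes was 0.00, -0.07 and 0.05 in drug order, beside -0.04, -0.05 and -0.01 over all probes. These comparisons share the 3 control arrays. On the spiked-in scale the median of the 10 genes was 0.11, 0.21 and 0.24 with the drugs in that order, where the median of all probes was 0.14, 0.31 and 0.23, and 40%, 74.2% and 62.4% of all probes were called higher with 3.44%, 0.275% and 0.616% called lower.

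**Figure D1:**
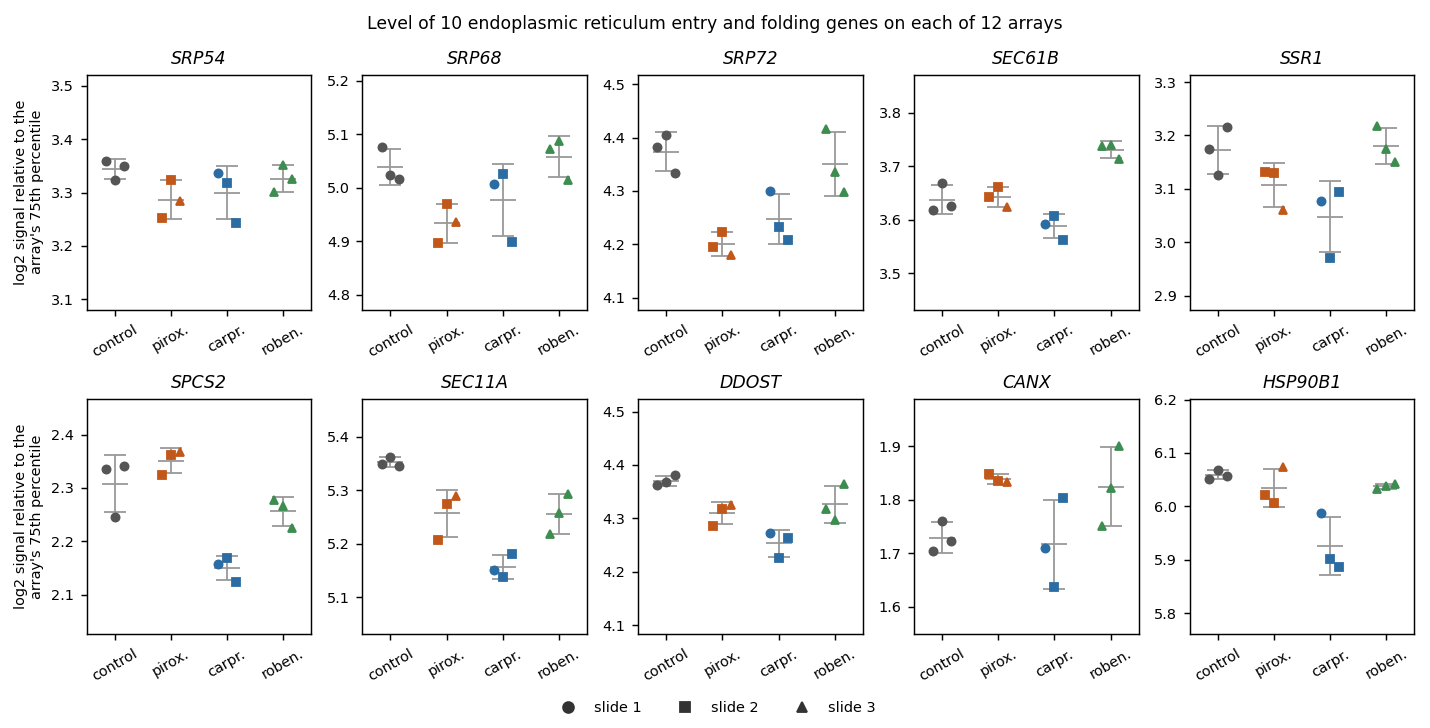
Each panel plots 1 gene's log2 level (y axis, minus the 75th percentile of its array) for 12 arrays in 4 groups; points are arrays, symbols mark slides, and grey bars give the mean ± SD of 3 arrays, with panels spanning the same height around different levels. The 3 carprofen arrays lie below the 3 control arrays for 7 genes (SRP72, SEC61B, SSR1, SPCS2, SEC11A, DDOST and HSP90B1), where 27.5% of all probes do so, a direction that turns on the spiked-in scale.

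The signal recognition particle is represented by 3 of the 10 genes. SRP54 is the GTPase that recognises the signal peptide, and SRP68 and SRP72 form the pair that anchors to the particle's RNA. SRP72 (RefSeq transcript NM_001003264) had levels of 4.38, 4.40 and 4.33 in the controls, 4.20, 4.22 and 4.18 with piroxicam, 4.30, 4.23 and 4.21 with carprofen, and 4.42, 4.34 and 4.30 with robenacoxib. All 6 arrays of piroxicam and carprofen lay below every control, while the robenacoxib arrays overlapped the controls. SRP72 fell 1.13-fold with piroxicam (log2 change -0.17, SE 0.04, adjusted p = 0.00844) and 1.09-fold with carprofen (-0.13, SE 0.04, adjusted p = 0.0295), falls that became -0.01 and 0.21 on the spiked-in scale. The fall with piroxicam kept its call without any 1 of the 12 arrays, whereas the fall with carprofen lost it without control 1, control 2, carprofen 2 or carprofen 3, at adjusted p from 0.0798 to 0.1. In the blocked fit the SRP72 changes were -0.08 with piroxicam (adjusted p = 0.52) and -0.07 with carprofen (adjusted p = 0.375), and neither passed. The second, dimmer SRP72 probe changed by -0.05 (adjusted p = 0.277) and -0.01 (adjusted p = 0.777), so the call rests on 1 of the gene's 2 probes.

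SRP68 (NM_001003271) read 5.08, 5.02 and 5.02 in the controls and 4.90, 4.97 and 4.94 with piroxicam. Its piroxicam arrays did not overlap the controls, yet the change of -0.10 (SE 0.04) did not pass (adjusted p = 0.0758), except without carprofen 3, where it did at adjusted p = 0.0392. The carprofen arrays of SRP68, at 5.01, 5.03 and 4.90, and the robenacoxib arrays, at 5.07, 5.09 and 5.02, overlapped the control range. SRP54 (NM_001003272) moved least of these subunits: its controls read 3.36, 3.32 and 3.35 and its 9 treated arrays between 3.24 and 3.35. The SRP54 changes were -0.06, -0.04 and -0.02 with piroxicam, carprofen and robenacoxib, each with an SE of 0.03, and its other probe gave -0.10, -0.03 and -0.03, none of which passed. All 3 signal recognition particle genes had their lowest group mean with piroxicam, and the other 7 genes had theirs with carprofen. Over all tested probes the lowest mean fell to piroxicam for 32.2% and to carprofen for 27.6%.

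SEC61B (NM_001003326), the small beta subunit of the Sec61 channel, was the gene that rose. Its levels were 3.62, 3.67 and 3.63 in the controls, 3.64, 3.66 and 3.62 with piroxicam, 3.59, 3.61 and 3.56 with carprofen, and 3.74, 3.74 and 3.71 with robenacoxib. The robenacoxib arrays were above the other 9, and the carprofen arrays were below the other 9. With robenacoxib SEC61B rose 1.07-fold (log2 change 0.09, SE 0.02, adjusted p = 0.0237) and on the spiked-in scale by 0.36. The call was lost without control 1, control 3, robenacoxib 1 or robenacoxib 2, at adjusted p from 0.0631 to 0.0821. In the blocked fit the SEC61B change was 0.13 (SE 0.06) and did not pass (adjusted p = 0.348). With carprofen it was -0.05 (SE 0.02, adjusted p = 0.15), although no carprofen array overlapped a control.

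SSR1 (NM_001003270), the alpha subunit of the complex that sits beside the translocon, read 3.18, 3.13 and 3.22 in the controls, 3.13, 3.13 and 3.06 with piroxicam, 3.08, 2.97 and 3.09 with carprofen, and 3.22, 3.17 and 3.15 with robenacoxib. Carprofen 2 was the lowest array, and the 3 carprofen arrays lay below the controls. SSR1 fell 1.09-fold with carprofen (log2 change -0.12, SE 0.04, adjusted p = 0.0418), against a rise of 0.21 on the spiked-in scale. That call lies close to the threshold: it was lost when any of 7 arrays was left out (control 1 or 3, piroxicam 1 or 2, carprofen 2, robenacoxib 2 or 3), at adjusted p from 0.0516 to 0.134, and in the blocked fit (-0.09, adjusted p = 0.302). The other SSR1 probe changed by -0.09 with carprofen (adjusted p = 0.141).

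Both signal peptidase genes fell with carprofen. SPCS2 (NM_001003324), a non-catalytic subunit, read 2.34, 2.25 and 2.34 in the controls, 2.32, 2.36 and 2.37 with piroxicam, 2.16, 2.17 and 2.12 with carprofen, and 2.28, 2.27 and 2.23 with robenacoxib. The 3 carprofen arrays were the lowest of the 12, and the piroxicam arrays overlapped the controls. With carprofen SPCS2 fell 1.12-fold (log2 change -0.16, SE 0.03, adjusted p = 0.00454), against a rise of 0.18 on the spiked-in scale. The fall passed without any 1 array, and reached -0.15 in the blocked fit, where it did not pass (adjusted p = 0.075). That value is the slide 1 difference, carprofen 1 (2.16) against the mean of the 3 controls (2.25 to 2.34). With piroxicam SPCS2 changed by 0.04 (adjusted p = 0.339) and with robenacoxib by -0.05 (adjusted p = 0.289). SPCS2 had the smallest p of the 10 genes in the F-test over the 4 groups (F = 15.2, adjusted p = 0.00303).

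SEC11A (NM_001003313) read 5.35, 5.36 and 5.35 in the controls, 5.21, 5.27 and 5.29 with piroxicam, 5.15, 5.14 and 5.18 with carprofen, and 5.22, 5.26 and 5.29 with robenacoxib. All 9 treated arrays lay below all 3 controls, and the 3 carprofen arrays lay below the other treated ones. The fall with carprofen was 1.15-fold (log2 change -0.20, SE 0.03, adjusted p = 0.0011). It passed without any 1 array. It did not pass with quantile normalization (-0.08, adjusted p = 0.0715) or in the authors' deposited values (-0.12, adjusted p = 0.0607). In the blocked fit, which here sets carprofen 1 against the 3 controls of slide 1, it was -0.20 (adjusted p = 0.021). It was the one change against control of the 10 genes that passed in the blocked fit, where 8.64% of all probes were called lower with carprofen. On the spiked-in scale it was 0.14 (adjusted p = 0.0119). With piroxicam and with robenacoxib SEC11A fell 1.07-fold (-0.10, SE 0.03, adjusted p = 0.0381 and 0.0434), while spiked-in scaling gave 0.07 and 0.16. The piroxicam call was lost without control 1, 2 or 3, piroxicam 1 or 2, or robenacoxib 2, at adjusted p from 0.054 to 0.126. The robenacoxib call was lost without any 1 of 9 arrays, at adjusted p from 0.0518 to 0.127, and kept without piroxicam 1, piroxicam 3 or robenacoxib 3. Neither passed in the blocked fit (-0.12 and -0.15, adjusted p = 0.266 and 0.351).

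DDOST (NM_001003321), a non-catalytic subunit of oligosaccharyltransferase, was read on 1 probe with 5 spots per array. Its levels were 4.36, 4.37 and 4.38 in the controls, 4.29, 4.32 and 4.33 with piroxicam, 4.27, 4.23 and 4.26 with carprofen, and 4.32, 4.30 and 4.36 with robenacoxib. The piroxicam and carprofen arrays lay below every control. DDOST fell 1.08-fold with carprofen (log2 change -0.12, SE 0.03, adjusted p = 0.00714), against a rise of 0.22 on the spiked-in scale. The fall passed without any 1 array and was -0.10 in the blocked fit, which gives the slide 1 difference (adjusted p = 0.117). With piroxicam the change was -0.06 (SE 0.03, adjusted p = 0.108), and with robenacoxib -0.04 (SE 0.03, adjusted p = 0.256).

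HSP90B1 (NM_001003327) had levels of 6.05, 6.07 and 6.06 in the controls, 6.02, 6.01 and 6.07 with piroxicam, 5.99, 5.90 and 5.89 with carprofen, and 6.03, 6.04 and 6.04 with robenacoxib. The 3 carprofen arrays were the lowest of the 12. HSP90B1 fell 1.10-fold with carprofen (log2 change -0.13, SE 0.03, adjusted p = 0.0089) and its second probe fell by 0.12 (adjusted p = 0.0274), while on the spiked-in scale they rose by 0.20 and 0.22. The call passed without any 1 array. In the blocked fit the change, that of carprofen 1 against the slide 1 controls, was -0.07 (adjusted p = 0.128). With piroxicam and robenacoxib the changes were -0.03 and -0.02 on this probe and 0.04 and 0.04 on the other, and none passed.

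CANX (NM_001003232), which encodes calnexin, had no call against control on its brighter probe. That probe read 1.70, 1.76 and 1.72 in the controls, 1.85, 1.83 and 1.83 with piroxicam, 1.71, 1.64 and 1.80 with carprofen, and 1.75, 1.82 and 1.90 with robenacoxib. The piroxicam arrays lay above every control, at a change of 0.11 (SE 0.05, adjusted p = 0.116), and the carprofen arrays spread over the control range and beyond it (-0.01, SE 0.05, adjusted p = 0.878). The dimmer probe read 0.82, 0.89 and 0.90 in the controls, 1.0, 0.99 and 1.0 with piroxicam, 0.80, 0.78 and 0.73 with carprofen, and 0.97, 0.94 and 0.90 with robenacoxib. On it CANX rose with piroxicam (log2 change 0.13, SE 0.03, adjusted p = 0.0179) and fell with carprofen (-0.10, SE 0.03, adjusted p = 0.0417), the latter becoming a rise of 0.24 on the spiked-in scale. Neither passed in the blocked fit (0.17, adjusted p = 0.163, and -0.07, adjusted p = 0.383).

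**Figure D2:**
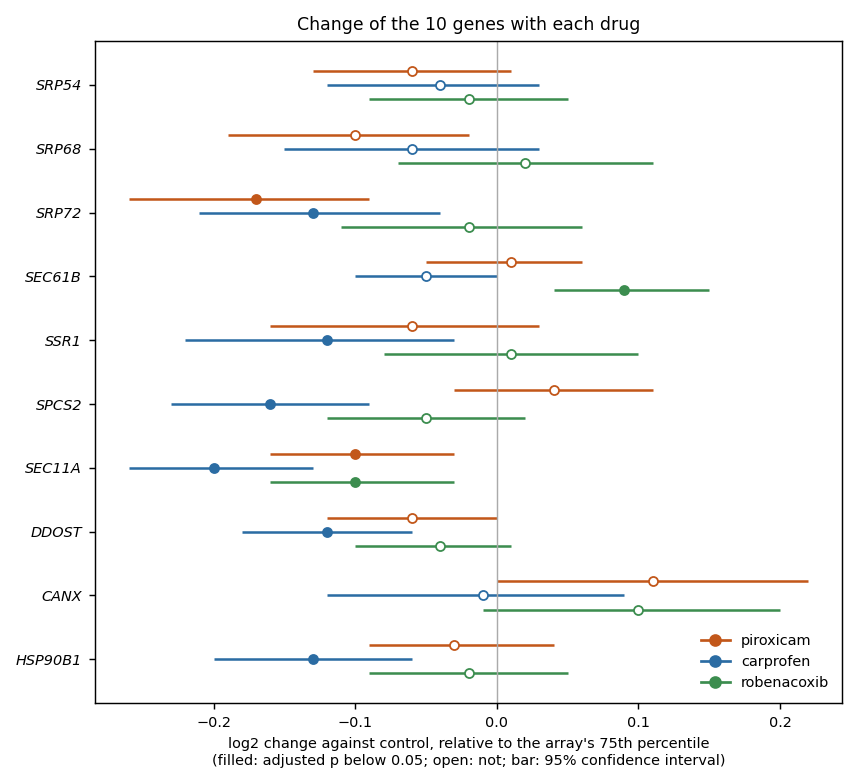
Log2 change of each gene against the controls (x axis, relative to the array's 75th percentile) for 3 drugs, from limma over 12 arrays; points are estimates, filled where the adjusted p was below 0.05, and bars are 95% confidence intervals. Filled points lie left of 0 for 6 genes with carprofen and 2 with piroxicam, and robenacoxib has SEC61B right of 0 and SEC11A left of 0; on the spiked-in scale these falls are absent.

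Of the 10 genes, 5 had a second probe, and the pairs did not always give the same answer. The 5 second probes added 1 call higher with piroxicam (CANX), 2 lower with carprofen (CANX and HSP90B1) and 0 with robenacoxib. In all 15 probes, 1 was higher and 2 lower with piroxicam, 0 higher and 8 lower with carprofen, and 1 higher and 1 lower with robenacoxib. The mean of a gene's probes, used in place of the brightest, gave 3, 5 and 2 genes called with the drugs in that order.

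**Figure D3:**
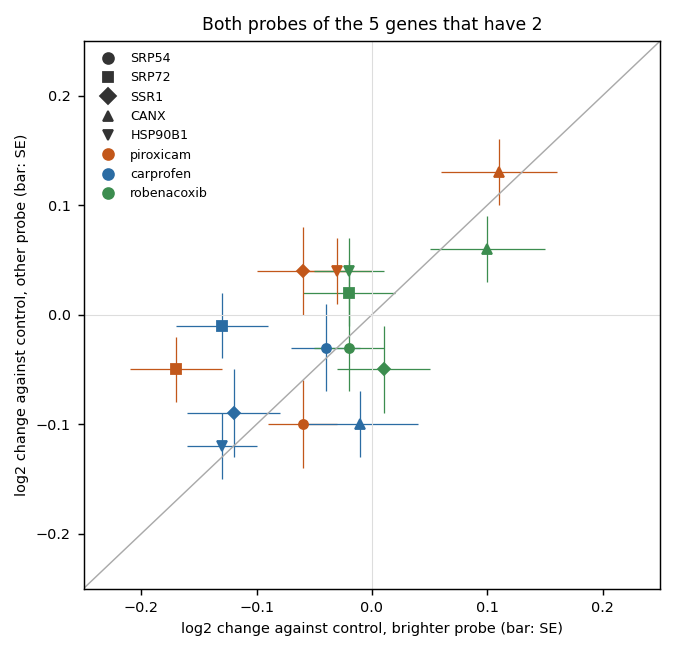
Log2 change against control on the brighter probe (x axis) and the other probe (y axis) of the 5 genes with 2 probes; symbols mark genes, colours mark drugs, bars are 1 SE, and the diagonal marks equal values. Both HSP90B1 probes lie near -0.12 with carprofen, whereas SRP72 reads -0.17 on one probe and -0.05 on the other with piroxicam; all values are relative to the array's 75th percentile.

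Direct comparison of the drugs, at their differing doses, placed carprofen below piroxicam for part of the set. SPCS2 was 1.15-fold lower with carprofen than with piroxicam (log2 difference -0.20, SE 0.03, adjusted p = 0.000841), HSP90B1 1.08-fold lower (-0.11, SE 0.03, adjusted p = 0.0197) and SEC11A 1.07-fold lower (-0.10, SE 0.03, adjusted p = 0.0242). Thus 3 genes were lower and 0 higher, where 18.9% of all probes were called lower and 18.6% higher. On slide 2, which holds 2 arrays of each drug, carprofen 2 and 3 were below piroxicam 1 and 2 by 0.20 for SPCS2, 0.12 for HSP90B1 and 0.08 for SEC11A. SEC61B, SSR1, DDOST and CANX on their brightest probes were lower there too, at -0.07, -0.10, -0.06 and -0.12. None of these genes overlapped on slide 2. With 2 arrays against 2 that says little, and the share of all probes without overlap there was not counted. The blocked fit tests these same slide 2 differences. In it SPCS2 (adjusted p = 0.0107) and HSP90B1 (adjusted p = 0.00885) passed and SEC11A did not (adjusted p = 0.145). So 2 genes were lower, beside 15.8% of all probes. Unadjusted, 0 genes were higher and 5 lower with carprofen than with piroxicam, beside 22.6% and 22.7% of all probes. Without piroxicam 3, carprofen 2 or carprofen 3 in turn HSP90B1 lost its call, at adjusted p from 0.0649 to 0.0721, and SEC11A lost its own without piroxicam 2 or 3 or carprofen 1 or 2, at 0.0565 to 0.0849. On the spiked-in scale the differences were -0.03 for SPCS2, 0.06 for HSP90B1 and 0.07 for SEC11A, and 5 of the 10 genes were called higher with carprofen and 0 lower, where 43.5% of all probes were called higher and 4.6% lower.

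The dimmer CANX probe also separated these drugs, at -0.22 (SE 0.03, adjusted p = 0.000502), and on slide 2 its carprofen arrays were 0.24 below the piroxicam arrays. For the brighter CANX probe the difference was -0.12 (SE 0.05, adjusted p = 0.0718), again without overlap, and it passed without carprofen 3 (-0.17, adjusted p = 0.023). The other probes of HSP90B1 (-0.16, adjusted p = 0.00577) and SSR1 (-0.12, adjusted p = 0.0435) were also lower with carprofen. The 3 signal recognition particle genes went the other way in sign, at 0.01, 0.04 and 0.05 for SRP54, SRP68 and SRP72, with SEs of 0.03 to 0.04 and none called.

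Robenacoxib was higher than piroxicam for SRP72 (log2 difference 0.15, SE 0.04, adjusted p = 0.0159), SRP68 (0.12, SE 0.04, adjusted p = 0.0426) and SEC61B (0.09, SE 0.02, adjusted p = 0.0244). These 3 genes were higher and 0 lower, where 13.9% of all probes were called higher and 13.2% lower. Piroxicam 3 shares slide 3 with the robenacoxib arrays. On that slide robenacoxib was above piroxicam 3 by 0.17 for SRP72, 0.12 for SRP68 and 0.11 for SEC61B, with no overlap. Against that 1 array SRP54 (0.04) and SSR1 (0.12) were also higher without overlap, and SPCS2 (-0.11) and HSP90B1 (-0.04) lower. With 1 piroxicam array a lack of overlap says little, and the share of all probes without overlap there was not counted. In the blocked fit, which tests the slide 3 differences, none of SRP72, SRP68 and SEC61B passed (adjusted p = 0.0594, 0.2 and 0.0812). It called 18.3% of all probes in either direction. Unadjusted, 3 were higher and 1 lower, beside 19.2% and 18.2% of all probes, and in the blocked fit 2 and 0, beside 19.2% and 13.9%. SPCS2 had the opposite sign, at -0.09 (adjusted p = 0.0523) without overlap and -0.11 on slide 3, and it was called lower without control 2 (adjusted p = 0.0303). On the spiked-in scale 7 of the 10 genes were called higher with robenacoxib than with piroxicam and 0 lower, where 27.5% of all probes were called higher and 4.81% lower. SRP68 lost its call without any 1 of 8 arrays, at adjusted p from 0.051 to 0.134, keeping it without robenacoxib 3 or any 1 carprofen array. SEC61B lost its own without piroxicam 1 or 3 or robenacoxib 1 or 2, at 0.0651 to 0.0809, and SRP72 without piroxicam 3 or robenacoxib 1, at 0.0534 and 0.0503.

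Between robenacoxib and carprofen SEC61B was the one gene called, higher with robenacoxib by 0.14 (SE 0.02, adjusted p = 0.00932) and 1.10-fold, where 4.42% of all probes were called higher and 3.74% lower. That call held without any 1 array and was lost in the blocked fit (0.17, adjusted p = 0.194, where 0.253% of all probes were called). No slide held arrays of both robenacoxib and carprofen. On the spiked-in scale 0 of the 10 genes differed between these drugs, where 0.778% of all probes were called higher and 8.41% lower. HSP90B1 was 0.11 higher with robenacoxib (SE 0.03) and just missed the threshold (adjusted p = 0.0558), passing without carprofen 1 (0.14, adjusted p = 0.0191), and its second probe was 0.16 higher (adjusted p = 0.0249). The dimmer CANX probe was also 0.16 higher (adjusted p = 0.0173). Unadjusted, 8 of the 10 genes were higher with robenacoxib than with carprofen and 0 lower, beside 12.9% and 10.8% of all probes, and in the blocked fit 2 and 0, beside 8.5% and 5.22%. The F-test over the 4 groups called 6 of the 10 genes (SRP72, SEC61B, SPCS2, SEC11A, DDOST and HSP90B1), where it called 48% of all probes.

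The direction of the falls depended on how the arrays were brought to a common scale, as the plot of 6 scalings or models shows for the 3 drugs. Relative to the 75th percentile, the spiked-in transcripts moved every gene up by 0.165, 0.336 and 0.262 for piroxicam, carprofen and robenacoxib. The 10 changes with carprofen then ran from 0.14 (SEC11A) to 0.32 (CANX), and those with robenacoxib from 0.16 (SEC11A) to 0.36 (SEC61B and CANX). With quantile normalization SPCS2 alone was called with carprofen (-0.11, adjusted p = 0.0352). There SEC11A, SRP72, SSR1, DDOST and HSP90B1 changed by -0.08, -0.02, -0.05, -0.01 and -0.01. The same scaling called SRP72 lower with piroxicam (-0.13) and SEC61B higher with robenacoxib (0.14). In the authors' deposited values, whose normalization between arrays is not described, SRP68 was called higher with carprofen (0.16) and no gene was called lower, and with piroxicam SRP72 (-0.22) and SEC11A (-0.18) were called lower and HSP90B1 (0.12) higher. With robenacoxib those values had SRP68 (0.22) and SEC61B (0.25) higher and SEC11A (-0.15) lower.

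**Figure D4:**
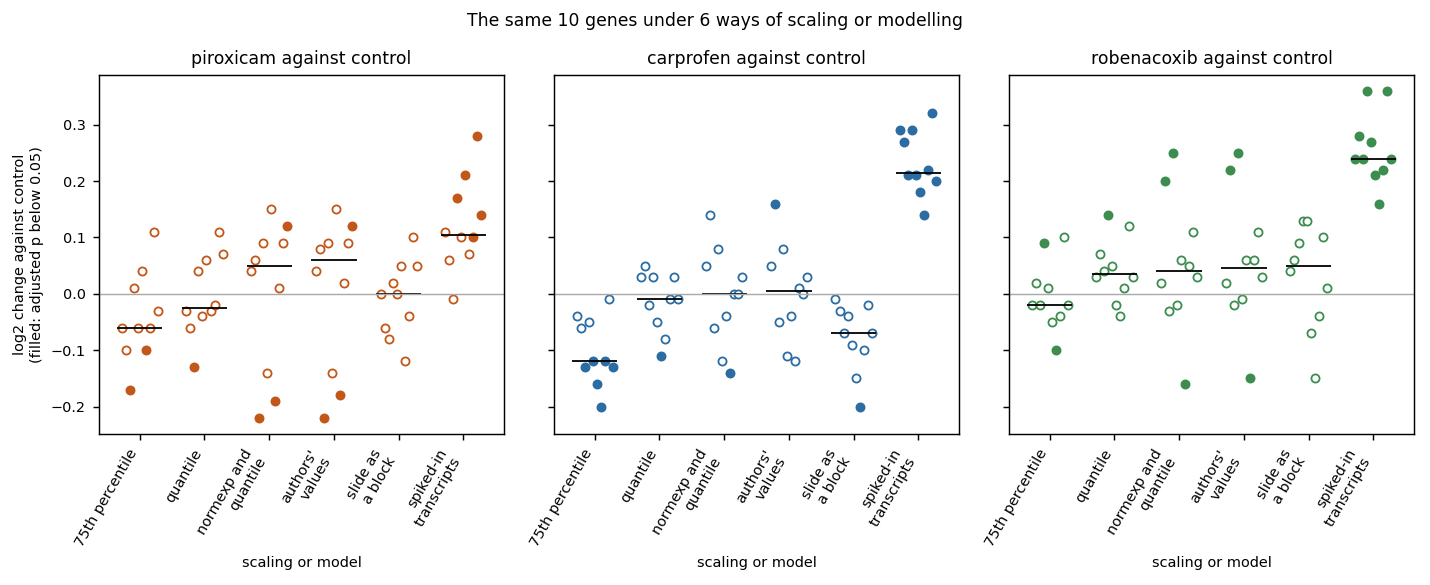
Log2 change against control (y axis) of the 10 genes under 6 scalings or models (x axis), with 1 panel per drug; points are genes in the same order within each column, filled where the adjusted p was below 0.05, and black lines are medians of the 10 genes. With carprofen the median is -0.12 relative to the 75th percentile and 0.21 relative to spiked-in transcripts, and SEC11A alone is filled in the blocked fit.

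The rest of the pathway could be read only in part. Of 69 further genes on lists of the signal recognition particle and its receptor, translocon, signal peptidase, oligosaccharyltransferase, chaperones, unfolded protein response and degradation from the endoplasmic reticulum, 7 were named on the array and tested. None of 12 genes of the unfolded protein response was among them, and of 18 chaperones and folding enzymes CANX and HSP90B1 alone were. Read on their brightest probes, 0 of the 7 rose and 0 fell with piroxicam, 0 rose and 1 fell with carprofen, and 0 rose and 0 fell with robenacoxib, whereas on the spiked-in scale 3, 7 and 7 were called higher. Their median changes of -0.04, -0.12 and -0.04 lay beside -0.06, -0.12 and -0.02 for the 10 genes.

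The one that fell was SEC11C, the alternative catalytic subunit of signal peptidase and a close relative of SEC11A. It read 3.74, 3.72 and 3.74 in the controls, 3.68, 3.73 and 3.71 with piroxicam, 3.57, 3.51 and 3.47 with carprofen, and 3.65, 3.66 and 3.68 with robenacoxib. With carprofen SEC11C fell by 0.22 on the log2 scale (SE 0.03, adjusted p = 0.00054), and by 0.16 in the blocked fit (adjusted p = 0.0206), against a rise of 0.12 on the spiked-in scale. All 3 signal peptidase genes measured were thus lower with carprofen relative to the 75th percentile and higher relative to spiked-in transcripts. Whether the probes of SEC11A and SEC11C read each other's transcripts was not tested.

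SRP14, which binds the Alu end of the particle's RNA, changed by -0.12 with carprofen on its brighter probe (SE 0.05, adjusted p = 0.109) and fell by 0.21 on its other probe (SE 0.03, adjusted p = 0.000547), a value that was also -0.21 in the blocked fit (adjusted p = 0.0178) and 0.13 on the spiked-in scale. That other probe, at 4.33 in the controls beside 4.32 for the brighter one, also fell with robenacoxib (-0.11, SE 0.03, adjusted p = 0.0232). The robenacoxib change was 0.16 on the spiked-in scale and -0.11 in the blocked fit, where it did not pass (adjusted p = 0.5). SRP14 had its lowest mean with carprofen on each probe, unlike the 3 subunits above. TRAM1, a membrane protein next to the channel, changed by -0.11 with carprofen on its brighter probe (adjusted p = 0.108), while its dimmer one fell by 0.10 with carprofen (adjusted p = 0.00825) and rose by 0.08 with piroxicam (adjusted p = 0.0291), with 0.24 for both on the spiked-in scale. The brighter TRAM1 probe passed in the blocked fit with carprofen (-0.19, adjusted p = 0.0408) and the dimmer one passed with neither carprofen (-0.08, adjusted p = 0.138) nor piroxicam (0.10, adjusted p = 0.204). SEC61A1, the pore-forming subunit of the channel, changed by -0.04, -0.05 and 0.08 with piroxicam, carprofen and robenacoxib on its brightest probe, and SEC61G by -0.01, -0.12 and 0.00. SSR2, the beta subunit beside SSR1, changed by -0.09, -0.10 and -0.09, and SELENOS, a membrane protein of the degradation route, by -0.04, -0.13 and 0.06. None of these passed on these probes, though a dim SEC61A1 probe fell by 0.14 with carprofen (adjusted p = 0.0104), a value of 0.20 on the spiked-in scale and of -0.15 in the blocked fit, where it did not pass (adjusted p = 0.0521).

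The profile of SPCS2 across the 12 arrays was set against 604 other named genes after each gene was centred on its own mean. The closest were TFRC, the transferrin receptor, at a root mean square difference of 0.037 on the log2 scale, GALK1, a galactose kinase, at 0.041, and SEPHS2, a selenophosphate synthetase, at 0.042, where SPCS2 itself had an SD of 0.084. TFRC changed by 0.06, -0.17 and -0.05 with piroxicam, carprofen and robenacoxib, beside 0.04, -0.16 and -0.05 for SPCS2. This likeness follows from picking TFRC on these same arrays.

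Some genes listed as markers of other cell types changed as well, in these cultures of 1 cell line. Of 5 fibroblast genes 3 were tested, and 2 fell with each drug: COL1A2 and DCN with piroxicam, COL1A1 and COL1A2 with carprofen, and COL1A1 and DCN with robenacoxib. Of all probes 16.1%, 19.5% and 12.6% were called lower with these drugs. Control levels on the brightest probes were 3.42 for COL1A1 and 6.01 for COL1A2, as bright as many of the 10 genes. The other COL1A1 probes were far dimmer, at -4.46, -2.68 and -2.45 in the controls. In that order they changed by -0.15, 0.15 and -0.19 with piroxicam, -0.11, -0.07 and -0.34 with carprofen, and -0.14, -0.01 and -0.31 with robenacoxib. Of these the -0.34 and the -0.31 were called (adjusted p = 0.0213 and 0.0457). DCN was dim at -5.25, and its other probe was well above background on 2 of 12 arrays. COL1A1 changed by 0.00, -0.19 and -0.12 with the 3 drugs in that order, COL1A2 by -0.10, -0.16 and -0.07 and DCN by -0.42, -0.16 and -0.35, where the spiked-in scale gave 0.16, 0.15 and 0.14 for COL1A1, 0.07, 0.17 and 0.19 for COL1A2 and -0.26, 0.18 and -0.09 for DCN. COL1A1 with carprofen kept its call in the blocked fit (-0.14, adjusted p = 0.0464) and the other 5 of these 6 calls were lost, at adjusted p from 0.0745 to 0.928. Both leukocyte genes tested, CD4 and CD8A, and the endothelial gene VWF had no call with any drug in the fit without the block. In the blocked fit CD8A was called higher with piroxicam (1.72, adjusted p = 0.0439) and carprofen (1.0, adjusted p = 0.049). That CD8A probe was dim, at -5.10 in the controls, with an SD of 0.97 over the carprofen arrays. The gene's other probe was well above background on 0 of 12 arrays. KDR was well above background on 0 of 12 arrays, and none of 5 epithelial genes was named on the array. MITF fell by 0.13 with carprofen (adjusted p = 0.00797), against 0.21 on the spiked-in scale and -0.10 in the blocked fit, where it did not pass (adjusted p = 0.102). The dimmer MITF probe changed by -0.11 with carprofen and did not pass (adjusted p = 0.0544), so the MITF call rests on 1 of 2 probes. Fewer cells of a kind and less RNA per cell cannot be told apart in such bulk samples, and the part of these markers in the changes of the 10 genes was not tested.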

How the data were processed

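Total RNA (RNeasy Mini kit, RNA integrity number above 9.0) was labelled with Cy3 and hybridised with a spike-in kit, per the labels' protocols. The deposited scanner files hold spot intensities from Feature Extraction 10.7.3.1 (protocol GE1_107_Sep09), background-subtracted within each array, per the file headers. The authors also deposited log2 values with a median of 7.67 on every array. Limma 3.24.15 is named in the submitters' processing notes, without its steps. These values served as an alternative.

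Here, in R 4.3.3 with limma 3.58.1, control and outlier spots were left out, log2 values of a probe's spots were averaged, and levels were set relative to the 75th percentile of the array. The 31996 probes tested were well above background throughout 1 group or more, by lmFit and eBayes over 12 arrays (8 residual degrees of freedom) and Benjamini-Hochberg adjustment within each of 6 comparisons. The script was tested on simulated data. The SE of a change was 0.02 to 0.05 for the 10 genes, against a median of 0.053 over all probes; 3 arrays a group limit the precision. Spiked-in scaling used the mean of the 7 of 10 spiked transcripts brighter than the median signal on every array. The normexp alternative (offset 50) used the median spot and background signals, since the files hold no mean signal. Slide and scan cannot be told apart.

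Genes were named from RefSeq transcripts in the array design through a table of assembly UU_Cfam_GSD_1.0, which named 1313 probes (3.01%). No genome build is named in the sources used here, so no positions are given. The 10 genes, the pathway and marker lists and the alternatives were chosen with earlier results of these arrays known. Named were the 10 genes, the listed pathway and marker genes on the array, and the 3 genes most like the one of the 10 with the smallest F-test p. Alternatives were normexp, quantile and spiked-in scaling, the authors' values, other filters, slide or replicate number as a block, probe means, each array left out, and only the groups compared; a fit without control 3 and piroxicam 3 was added after seeing the data.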

Additional observations from a re-analysis of the deposited data

How the results depend on the processing

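Of 17 changes called among 6 comparisons of the 10 genes, 3 were also called with slide as a block. The count of genes called, which was 2, 6 and 2 with piroxicam, carprofen and robenacoxib against control, 3 for carprofen against piroxicam, 3 for robenacoxib against piroxicam, 1 for robenacoxib against carprofen and 6 in the F-test, is given below in that order where it moved by more than 1.5 times. Smaller moves, such as 6 to 4 for carprofen without a filter or with only the groups compared, are left out. With slide as a block it was 0, 1, 0, then 0 and 0 for robenacoxib against piroxicam and carprofen, and 3 in the F-test. On spiked-in transcripts it was 5, 10, 10, 5, 7, 0 and 10. With normexp and the 75th percentile it was 2 for carprofen, 1, 0 and 0 between drugs, and 3 in the F-test. With normexp and quantile normalization it was 1 for carprofen and 1, 1 and 0 between drugs, and with quantile normalization 1, 1 and 1 against control and 3 in the F-test. In the authors' values it was 1 for carprofen, 0, 1 and 0 between drugs, and 3 in the F-test. Without a filter on dim probes it was 1 for piroxicam, 0 for robenacoxib and 1 for robenacoxib against piroxicam. Probes above background on all 12 arrays gave 2 for robenacoxib against carprofen, and the mean of a gene's probes gave 3. With only the groups compared it was 0 for robenacoxib against control and 1, 0 and 0 between drugs. Without control 3 and piroxicam 3, chosen after seeing the data, it was 1 for piroxicam, 0 for robenacoxib, 1 for carprofen against piroxicam and 0 for robenacoxib against piroxicam. Leaving out 1 array at a time gave 1 to 3, 4 to 6 and 0 to 2 against control, 1 to 3, 0 to 3 and 1 to 2 between drugs, and 4 to 7 in the F-test. The cause of these moves was not tested.

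Directions reversed for 32 values, counted where the change passed the test before or under the alternative and its sign turned, values printed as 0 included. Sign changes of values that passed in neither are not counted. With normexp and quantile normalization HSP90B1 was 0.12 with piroxicam, DDOST 0.00 and HSP90B1 0.03 with carprofen, and SEC11A 0.05 for carprofen against piroxicam. In the authors' values HSP90B1 was 0.12 with piroxicam, SRP68 0.16, DDOST 0.01 and HSP90B1 0.03 with carprofen, and SEC11A 0.06 for carprofen against piroxicam. On spiked-in transcripts SEC11A, DDOST and HSP90B1 were 0.07, 0.10 and 0.14 with piroxicam. SRP54, SRP68, SRP72, SEC61B, SSR1, SPCS2, SEC11A, DDOST, CANX and HSP90B1 were 0.29, 0.27, 0.21, 0.29, 0.21, 0.18, 0.14, 0.22, 0.32 and 0.20 with carprofen. SRP54, SRP72, SPCS2, SEC11A, DDOST and HSP90B1 were 0.24, 0.24, 0.21, 0.16, 0.22 and 0.24 with robenacoxib, and SEC61B, SEC11A, DDOST and HSP90B1 were 0.12, 0.07, 0.11 and 0.06 for carprofen against piroxicam.

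The deviations of same-numbered arrays of different groups correlated at -0.45 to 0.20 over 18 pairs, and 3 pairs were above 0.1. Over 36 pairs with different numbers the range was -0.31 to 0.57, and 16 were above 0.1. With 3 arrays a group these values cannot decide whether same-numbered arrays share a culture or day. With the replicate number as a block the count of genes called against control was 2, 5 and 1.

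Over all probes, counts called against control were 8950, 10494 and 7106 with piroxicam, carprofen and robenacoxib, 11995 and 8665 for carprofen and robenacoxib against piroxicam, and 2609 for robenacoxib against carprofen. They became 1629, 5232 and 451 against control and 81 for robenacoxib against carprofen with slide as a block, and 13896, 23832 and 20171 against control on spiked-in transcripts. With normexp and the 75th percentile all 6 were lower, at 5753, 5447, 4569, 6732, 4657 and 210. Carprofen against control gave 6846 with normexp plus quantile scaling and 6472 in the authors' values. Robenacoxib against carprofen gave 663 and 555 in these settings, 1398 without a filter, 1375 with the replicate block, 210 with only the groups compared, 1737 without control 3 and piroxicam 3, and 1156 to 2386 with 1 array left out. Without control 3 and piroxicam 3 piroxicam gave 4780 and robenacoxib 4665 against control, and with 1 array left out robenacoxib gave 4626 to 7616.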
